A study of Mus musculus with 5 samples.

Results

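The transforming growth factor beta (TGF-beta) receptors and their SMAD signalling chain were examined in CD4 T cells of the mouse colon. The 9 genes, named by symbol, were the ligand Tgfb1, the receptors Tgfbr1 and Tgfbr2, the signal transducers Smad2, Smad3 and Smad4, and the inhibitors Smad7, Ski and Skil. Each was read from the probe set annotated with that single symbol, choosing the highest mean over the 5 arrays where there were several. All 9 had 1 such probe set, out of 19937 genes measured in this way.

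TGF-beta is secreted in a latent form and, once released, binds the type II receptor, which recruits and phosphorylates the type I receptor. The type I receptor phosphorylates SMAD2 and SMAD3, and these enter the nucleus with SMAD4 and act on target genes. In T cells the pathway is known to restrain Th1 differentiation and to favour regulatory and Th17 fates and residence in the gut.

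The cells had been sorted from the colonic lamina propria as CD45+CD3+CD4+ cells with low CD44. There were 3 conditional arrays (CD4cre/Cnb1flox), from mice with Cre recombinase under CD4 control and a floxed gene for calcineurin B, the regulatory subunit of the phosphatase calcineurin. The 2 control arrays are labelled WT as well as CD4neg/Cnb1flox, a name that gives the same floxed gene without the CD4-driven Cre. CD4-driven Cre is known to act from the thymus onward, in CD8 as well as CD4 lineage cells. Of age, sex and strain background nothing is given in the sources used here, nor is it said whether an array held 1 mouse or a pool. Each p-value thus covers the spread from array to array, which may be technical.

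Before the results, 1 array must be described. Control replicate 1 stood apart in its marker genes, so the values of the 9 genes below are also given against each control by itself. The summed signal of 11 T cell markers was 14.63, 14.70 and 14.85 on the log2 scale in conditional replicates 1, 2 and 3, against 12.25 in control replicate 1 and 14.97 in control replicate 2. For 12 stromal and endothelial markers the sums ran from 12.88 to 13.86 in conditional cells, against 15.06 and 13.75 in the controls. For 12 epithelial markers they ran from 11.13 to 12.01, against 14.27 and 11.98. Lower T cell and higher stromal and epithelial signal thus appeared together on control replicate 1. In such sorted bulk samples, fewer cells of a type and less RNA per cell cannot be told apart. By summed signal, the myeloid, granulocyte and stress lists had non-overlapping groups, while the B cell list overlapped. The 12 macrophage and dendritic markers summed to 11.36 to 12.56 in conditional cells, against 10.47 and 10.71 in the controls, and the 8 granulocyte and mast cell markers to 10.60 to 10.76 against 9.26 and 9.0005. The 7 B cell markers summed to 11.92 to 13.15 in conditional cells and 13.37 and 12.44 in control cells, and 11 stress and immediate-early genes to 14.06 to 14.33 and 15.24 and 15.47. The part of these differences in the results below was not tested. The targeted gene, Ppp3r1, differed by -0.052 ± 0.159 (SE, limma, adjusted p = 0.927). Its direction turned without control replicate 1, without conditional replicate 1 and after median centring. Where its probe set lies relative to the deleted exons was not tested, nor was any other cause.

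Tgfb1, which encodes the TGF-beta form that T cells are known to produce, showed the widest difference of the 9 genes. Its log2 signal was 11.13, 11.09 and 11.06 in conditional replicates 1, 2 and 3, against 9.81 in control replicate 1 and 10.30 in control replicate 2. All 3 conditional values lay above both control values, and the conditional values lay within 0.073 of each other. The conditional mean was 11.09 ± 0.037 (SD, n = 3) and the control mean 10.06 ± 0.347 (SD, n = 2). The difference was 1.04 ± 0.171 (SE), a ratio of 2.05 with a 95% confidence interval from 1.52 to 2.78. It did not pass an adjusted p of 0.05 over all genes (limma, adjusted p = 0.0938, unadjusted p = 0.00166, rank 352 of 19937 by p).

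Against control replicate 2 alone, whose summed T cell marker signal was 14.97, Tgfb1 differed by 0.79. Against control replicate 1 alone, with a sum of 12.25, Tgfb1 differed by 1.28. What the cell content of the arrays contributed was not tested. Both single-control fits passed the threshold (limma, adjusted p = 0.0230 without control replicate 1 and 0.00197 without control replicate 2). In those fits the lone control is assumed to vary like the conditional arrays, and 6.10% and 27.5% of all genes passed. Leaving out any 1 conditional array gave differences between 1.02 and 1.05 and adjusted p between 0.363 and 0.471, where 0 of all genes passed.

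**Figure D1:**
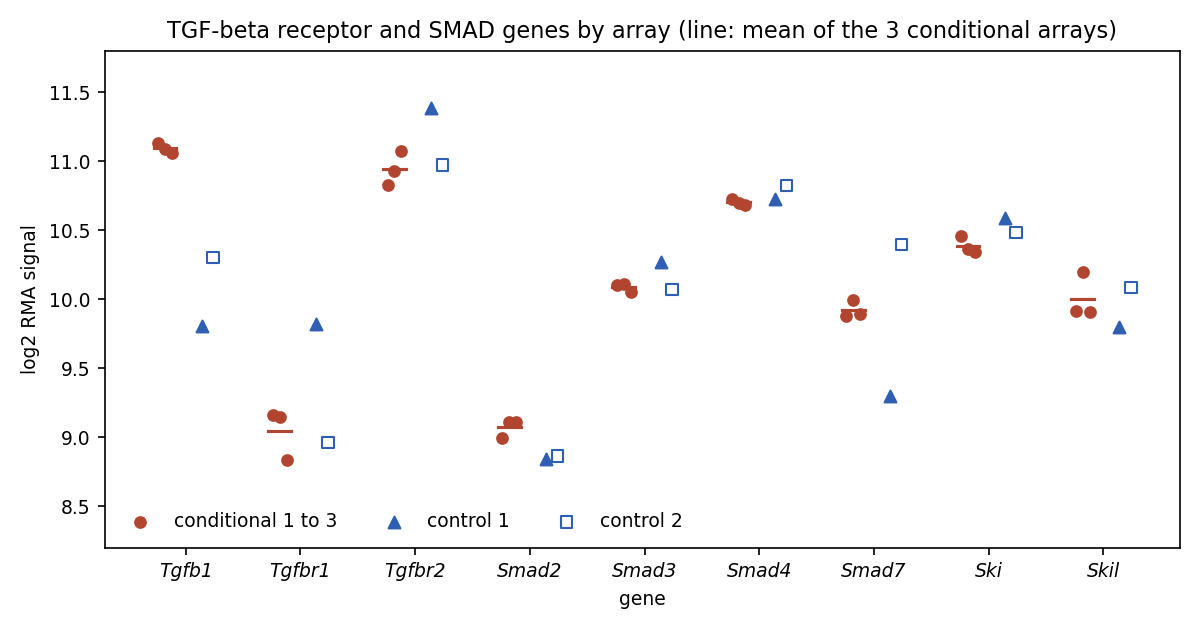
Log2 RMA signal (vertical axis) of the 9 genes (horizontal axis) on each array, conditional replicates as red circles with their mean as a line, control replicate 1 as a filled triangle and control replicate 2 as an open square. Tgfb1 lies at 11.06 to 11.13 in conditional cells, above both controls at 9.81 and 10.30, while for Smad7 the controls at 9.30 and 10.40 lie on either side of the conditional values. Levels of different genes come from different probes and are not comparable with each other.

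The bases just before the annotated start of Tgfb1 are shown together with those of Furin and Tgfbr2. Furin encodes the convertase that cleaves the TGF-beta precursor and, like Tgfb1, had all conditional values above both controls, while Tgfbr2 encodes the ligand-binding receptor. Sequences are RefSeq's (GRCm38.p6), the 250 bases before the start, 5′ to 3′ on the gene's strand. Furin has 2 annotated starts, and both windows are given. Capitals mark GGAAA, the core bound by NFAT factors, CAGAC, the SMAD-binding CAGA box, TGANTCA, the AP-1 site, and GGGCGG, the Sp1 GC box, each searched on both strands. Positions are chr7:25686752-25687001 on the plus strand for Tgfb1, chr7:80402813-80403062 and chr7:80405437-80405686 on the minus strand for Furin, and chr9:116175364-116175613 on the minus strand for Tgfbr2.
Tgfb1: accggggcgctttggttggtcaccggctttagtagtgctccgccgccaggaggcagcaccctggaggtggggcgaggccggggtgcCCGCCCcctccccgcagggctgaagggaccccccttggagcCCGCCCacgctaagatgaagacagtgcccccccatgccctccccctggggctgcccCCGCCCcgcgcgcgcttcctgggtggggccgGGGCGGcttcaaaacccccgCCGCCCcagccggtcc
Furin, start 1: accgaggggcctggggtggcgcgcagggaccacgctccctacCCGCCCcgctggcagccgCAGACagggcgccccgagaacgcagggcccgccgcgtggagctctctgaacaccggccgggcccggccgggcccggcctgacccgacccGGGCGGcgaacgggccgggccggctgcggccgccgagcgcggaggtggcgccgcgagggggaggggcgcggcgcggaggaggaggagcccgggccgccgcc
Furin, start 2: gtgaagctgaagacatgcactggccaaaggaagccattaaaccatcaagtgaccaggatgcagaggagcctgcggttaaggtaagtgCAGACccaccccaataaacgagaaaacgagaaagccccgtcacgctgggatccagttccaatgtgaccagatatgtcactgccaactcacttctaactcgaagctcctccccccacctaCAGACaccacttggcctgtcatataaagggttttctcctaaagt
Tgfbr2: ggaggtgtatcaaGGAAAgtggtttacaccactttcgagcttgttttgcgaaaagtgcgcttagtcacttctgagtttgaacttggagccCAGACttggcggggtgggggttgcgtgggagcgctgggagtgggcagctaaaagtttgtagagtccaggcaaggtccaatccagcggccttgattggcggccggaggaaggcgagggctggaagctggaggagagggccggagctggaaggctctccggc

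The Tgfb1 window held 5 GC boxes and no match to the other 3 motifs. The first Furin window held 2 GC boxes and 1 CAGA box, the second Furin window 2 CAGA boxes, and the Tgfbr2 window 1 NFAT core and 1 CAGA box. Of 32851 RefSeq windows of this length, 32.7% held a GC box, 55.6% an NFAT core, 42.2% a CAGA box and 6.75% an AP-1 site, and no marked motif overlapped another in the windows shown. GC content was 75.2% for Tgfb1, 83.2% and 50.4% for Furin and 58.4% for Tgfbr2, against a median of 52.4% over all windows. These matches describe letters and say nothing of binding in these cells.

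The receptor genes showed no difference from the mean of both controls that passed the test. Tgfbr2, the type II receptor that binds the ligand first, stood at 10.83, 10.93 and 11.08 in conditional replicates 1 to 3, against 11.39 and 10.97 in the first and second control. The value of control replicate 2 lay inside the conditional range and that of control replicate 1 above it. The difference was -0.23 ± 0.168 (SE, limma, adjusted p = 0.593), a ratio with a 95% interval from 0.631 to 1.15. Set against control replicate 2 by itself it was -0.027, and -0.44 against control replicate 1.

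Tgfbr1, the type I receptor kinase, stood at 9.16, 9.15 and 8.84 in conditional cells, against 9.82 and 8.96 in control cells. Conditional replicate 3 read lowest and control replicate 1 highest, so the groups overlapped. Conditional minus control, this gave -0.35 ± 0.284 (SE, limma, adjusted p = 0.650), with an interval of the ratio from 0.476 to 1.30. Its direction depended on the control, at 0.084 with control replicate 2 as the only control and -0.78 with control replicate 1. Only this second value passed the threshold (limma, adjusted p = 0.0219, where 27.5% of all genes passed). Both receptors read highest on control replicate 1, the array with the highest stromal and epithelial marker signal. What those cells contributed was not tested.

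The transducers lay within narrow ranges. Smad2, 1 of the pair of SMADs phosphorylated by the receptor, stood at 8.995, 9.11 and 9.11 in conditional replicates 1 to 3, against 8.84 and 8.87 in the controls. All conditional values lay above both control values, which were only 0.024 apart. They differed by 0.22 ± 0.104 (SE, limma, adjusted p = 0.425), with an interval of the ratio from 0.969 to 1.40, and it was 0.23 and 0.21 against control replicates 1 and 2 alone.

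Smad3, the other receptor-activated SMAD, stood at 10.10, 10.11 and 10.06 in conditional cells, against 10.27 and 10.07 in control cells. Control replicate 2 lay inside the conditional range. Smad3 differed by -0.082 ± 0.112 (SE, limma, adjusted p = 0.817), with an interval of the ratio from 0.774 to 1.15, and it turned to 0.016 without control replicate 1 and to 0.011 after median centring of the arrays. Smad4, the partner shared by all receptor-activated SMADs, stood at 10.72, 10.70 and 10.68 in conditional cells and 10.73 and 10.82 in control cells. Conditional values lay below both controls, though the highest of them, 10.724, was close to control replicate 1 at 10.726. Smad4 differed by -0.072 ± 0.101 (SE, limma, adjusted p = 0.821) and turned to 0.021 after median centring. It was -0.023 and -0.12 against control replicates 1 and 2 alone. Its ratio had an interval from 0.796 to 1.14, the narrowest of the 9 genes on the log2 scale.

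**Figure D2:**
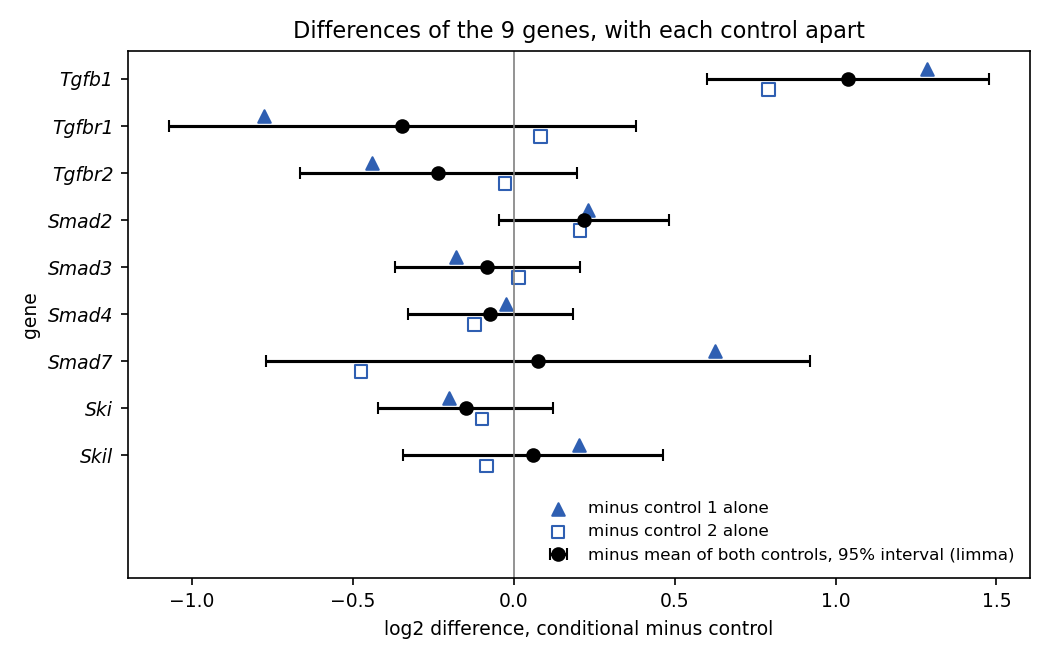
Log2 difference (horizontal axis), conditional minus control, for each of the 9 genes (vertical axis). Black points are differences from the mean of both controls with 95% confidence intervals from limma, triangles those from control replicate 1 alone and squares those from control replicate 2 alone. The interval of Tgfb1, from 0.60 to 1.48, lies above 0, all others span 0, and for Tgfbr1, Smad3, Smad7 and Skil the single-control values lie on opposite sides of 0.

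The inhibitors did not pass the test either. Smad7, which blocks the type I receptor and is itself induced by TGF-beta, stood at 9.88, 9.99 and 9.89 in conditional replicates 1 to 3, against 9.30 in control replicate 1 and 10.40 in control replicate 2. The conditional arrays agreed within 0.114, while the controls lay 1.099 apart on either side of them, a gap wider than that of 88.2% of all genes. The difference of 0.076 ± 0.330 (SE, limma, adjusted p = 0.950) is thus the mean of opposite values, 0.63 against control replicate 1 and -0.47 against control replicate 2. Each of these values rests on 1 control array, so no call is read from either. The 95% interval of the ratio, from 0.587 to 1.89, was the widest of the 9 genes on the log2 scale.

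Ski and Skil encode nuclear co-repressors that bind SMAD complexes, and Skil, also called SnoN, is a TGF-beta target as well. Ski stood at 10.46, 10.36 and 10.34 in conditional cells, against 10.59 and 10.48 in control cells, with all conditional values below both controls. Its difference was -0.15 ± 0.106 (SE, limma, adjusted p = 0.590), and -0.20 and -0.098 against control replicates 1 and 2 alone. Skil stood at 9.91, 10.19 and 9.90 in conditional cells, against 9.80 and 10.09 in control cells. Conditional replicate 2 read highest and the groups overlapped. The difference of 0.060 ± 0.158 (SE, limma, adjusted p = 0.916) turned to -0.084 without control replicate 1 and to -0.035 without conditional replicate 2.

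Over the 9 genes, 0 had a limma adjusted p under 0.05, where 0.416% of all genes passed (83 of 19937, 0.371% higher and 0.0451% lower). At an adjusted p of 0.1 the 1 gene past it was Tgfb1, among 1.88% of all genes. Tgfb1 alone had an unadjusted p under 0.05, as did 14.5% of all genes. The groups did not overlap for 4 of the 9, Tgfb1 and Smad2 higher and Smad4 and Ski lower in conditional cells. Over all genes 30.5% did not overlap, 17.4% higher and 13.1% lower. The median absolute difference was 0.15 for the 9 genes and 0.16 for all genes. In 4 of the 9 the direction was opposite against the 2 controls, as in 44.1% of all genes, and in 6 of the 9 the controls lay farther apart than the full range of the conditional arrays, as in 59.3% of all genes. The SD between conditional arrays had a median of 0.062, against 0.118 over all genes. Mean signals of the 9 genes ranked from 76.8% to 97.4% of the way up the list of all genes, and no detection call was given.

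**Figure D3:**
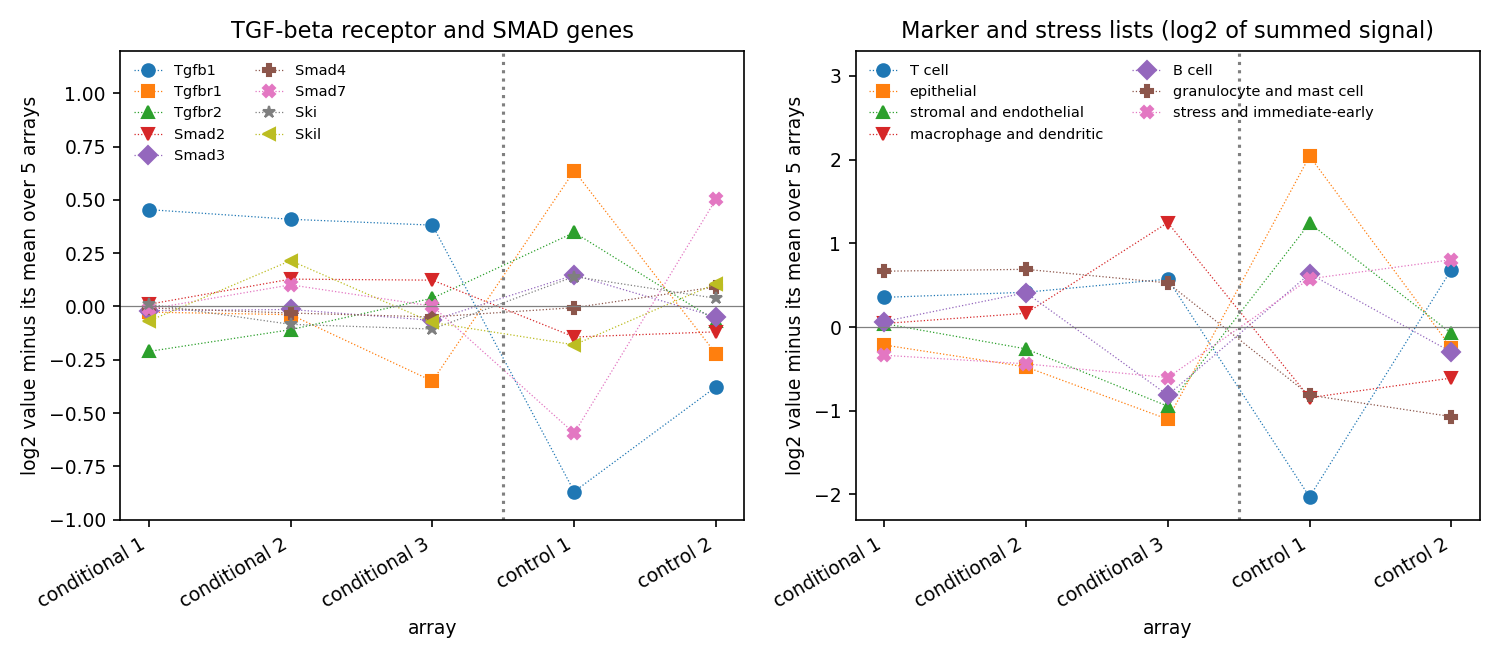
Values on each of the 5 arrays (horizontal axis) after subtracting their mean over the arrays (log2, vertical axis), for the 9 genes on the left and for the log2 summed signal of marker and stress lists on the right. Dotted lines only join values of 1 gene or list, and a vertical line parts the conditional arrays from the controls. On control replicate 1, Tgfb1, Smad7 and the T cell markers read low while Tgfbr1, Tgfbr2 and the epithelial and stromal markers read high, and control replicate 2 has low Tgfb1 with T cell markers at 14.97.

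The genes that make, store and release TGF-beta included 1 that rose. Of 16 measured, Furin rose and 0 fell past the threshold, where 0.371% and 0.0451% of all genes did so. The median difference was 0.058 against 0.029 over all genes. Groups did not overlap for 4 upward and 2 downward, where 17.4% and 13.1% of all genes did so. With control replicate 1 as the only control the list median turned to -0.40, and with control replicate 2 to -0.079. Furin stood at 11.52, 11.60 and 11.84 in conditional replicates 1 to 3, against control values of 9.95 and 10.14. Furin differed by 1.61 ± 0.146 (SE, limma, adjusted p = 0.0374), a ratio of 3.05, and it was 1.71 and 1.51 against control replicates 1 and 2 alone. It no longer passed when any 1 conditional array was left out (adjusted p between 0.171 and 0.316, where 0 genes passed), with the replicate number as a block (adjusted p = 0.0921), with array weights (adjusted p = 0.135) or after quantile normalization was applied again (adjusted p = 0.0559).

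Lrrc32, which encodes GARP, the anchor of latent TGF-beta on regulatory T cells, stood at 11.57, 11.35 and 11.27 in conditional cells, against 10.75 and 10.28 in control cells. All conditional values lay above both controls, and the difference was 0.88 (limma, adjusted p = 0.143). Itgav, the integrin chain that helps to release active TGF-beta, differed by 0.70 (adjusted p = 0.144). Each passed when either control was left out, at 1.12 for Lrrc32 and 0.87 for Itgav without control replicate 1, and at 0.64 and 0.54 without control replicate 2. Tgfb3, another ligand of the same receptors, differed by -1.35 (adjusted p = 0.255), and by -0.71 against control replicate 2 alone. In all, 3 of the 16 passed without control replicate 1, all higher, and 10 without control replicate 2 (4 higher, 6 lower). Over all genes these fits called 3.34% higher and 2.77% lower without the first control, and 11.0% higher and 16.5% lower without the second.

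The other receptors of the superfamily had a list median that depended on the control. Of 12 measured, 0 passed (limma, with 4 at an unadjusted p under 0.05, against 14.5% of all genes). In this list 1 differed upward, and the median difference was -0.67. With control replicate 1 as the only control the median was -1.09, and with control replicate 2 it was -0.0047. Acvr1b, an activin type I receptor that also signals through SMAD2 and SMAD3, stood at 7.70, 7.81 and 7.59 in conditional cells, against 8.72 and 8.58 in control cells. It was apart from both controls and differed by -0.95 ± 0.121 (SE, limma, adjusted p = 0.0660). Bambi, a decoy receptor without kinase, differed by -0.74 (adjusted p = 0.169), and Acvr2a, an activin type II receptor, by 0.83 (adjusted p = 0.174). Tgfbr3, the co-receptor betaglycan, differed by -1.38 (adjusted p = 0.325), with -0.59 against control replicate 2 alone. Without control replicate 1, Acvr1b, Bambi and Acvr2a differed by -0.88, -0.98 and 1.11, and without control replicate 2 by -1.02, -0.51 and 0.56.

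**Figure D4:**
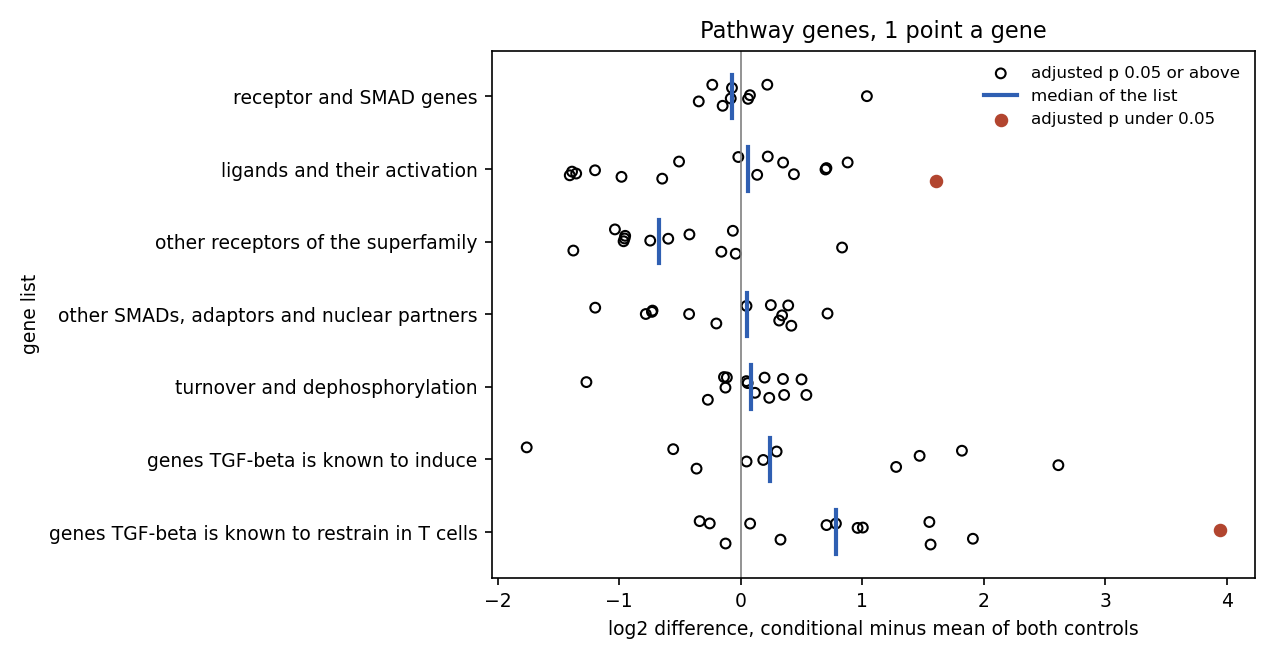
Log2 difference, conditional minus the mean of both controls (horizontal axis), of the genes in each list (vertical axis), 1 point a gene with vertical scatter added for legibility. Open points did not pass an adjusted p of 0.05, red points did, and blue bars are list medians. The red points are Furin at 1.61 and Il12rb2 at 3.94.

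Among other SMADs, adaptors and nuclear partners, 0 of 13 passed (limma, with 4 at an unadjusted p under 0.05, against 14.5% of all genes). The median difference was 0.047, or 0.30 and 0.022 against control replicates 1 and 2 alone. Groups did not overlap for 6 upward and 2 downward, where 17.4% and 13.1% of all genes did so. Zfyve16, an endosomal protein that binds SMAD4, differed by 0.71 (adjusted p = 0.206), Ep300, an acetyltransferase that SMADs recruit, by 0.34 (adjusted p = 0.231), and Sin3a, a co-repressor scaffold, by 0.42 (adjusted p = 0.324). Smad5, which serves BMP receptors, differed by -0.73 (adjusted p = 0.327), and by -0.29 against control replicate 2 alone. Without control replicate 2, Sin3a differed by 0.61 and Smad5 by -1.16.

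Genes of receptor and SMAD turnover gave 0 of 14 past the threshold (limma, with 4 at an unadjusted p under 0.05, against 14.5% of all genes). Their median was 0.087 (0.11 and 0.13 against control replicates 1 and 2 alone). Groups did not overlap for 5 upward and 2 downward, where 17.4% and 13.1% of all genes did so. Nedd4l, a ubiquitin ligase that targets activated SMAD2 and SMAD3, stood at 7.99, 7.98 and 7.63 in conditional cells, against 9.57 and 8.71 in control cells, and differed by -1.27 (adjusted p = 0.160). The deubiquitinases Usp15 and Usp4, which act on the type I receptor or SMADs, differed by 0.50 (adjusted p = 0.227) and 0.36 (adjusted p = 0.247). Ldlrad4, a membrane inhibitor of SMAD2 and SMAD3 activation, differed by 0.35 (adjusted p = 0.269). Without control replicate 2, Nedd4l differed by -1.70 and Ldlrad4 by 0.44, and without control replicate 1 by -0.84 and 0.25.

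Genes that TGF-beta is known to induce gave 0 of 10 past the threshold (limma). At an unadjusted p under 0.05 there were 4, all upward, against 14.5% of all genes in either direction. In this list 7 of the 10 differed upward, with a median of 0.24 (0.44 and 0.40 against control replicates 1 and 2 alone). The 4 named below had the smallest p and all differed upward, while the lowest of the list differed by -1.76. Groups did not overlap for 5 upward and 0 downward, where 17.4% and 13.1% of all genes did so. Itgae, the CD103 chain that binds epithelial E-cadherin, stood at 10.43, 10.43 and 10.23 in conditional cells, against 6.53 in control replicate 1 and 8.97 in control replicate 2. Gpr15, a homing receptor of the large intestine, stood at 9.34, 9.18 and 9.20, against 6.62 and 8.23. Both had conditional values above both controls, with the lower control the one of low T cell marker signal. They differed by 2.61 (limma, adjusted p = 0.205) and 1.82 (adjusted p = 0.193), and against control replicate 2 alone by 1.39 and 1.02. Against control replicate 1 alone they differed by 3.84 and 2.62. Nt5e, the CD73 ectoenzyme, differed by 1.28 (limma, adjusted p = 0.303) and Foxp3, the regulatory T cell factor, by 1.47 (adjusted p = 0.328). Against control replicate 2 alone Nt5e and Foxp3 differed by 0.52 and 0.54, and against control replicate 1 alone by 2.04 and 2.41.

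Of 13 genes that TGF-beta is known to restrain in T cells, 1 rose and 0 fell past the threshold. Over all genes 0.371% rose and 0.0451% fell past it. Groups did not overlap for 4 upward and 1 downward, where 17.4% and 13.1% of all genes did so. In this list 10 of the 13 differed upward, with a median of 0.78. With control replicate 1 as the only control the median was 1.37, and with control replicate 2 it was 0.15. Il12rb2, the interleukin-12 receptor chain whose expression TGF-beta is known to limit, differed by 3.94 (limma, adjusted p = 0.0112). Its call was lost when any 1 conditional array was left out, where 0 of all genes passed. Gzma, a granule protease, stood at 8.09, 8.13 and 7.95 in conditional cells, against 6.83 and 7.27 in control cells, and differed by 1.004 (adjusted p = 0.0966). Stat4 differed by 1.56 (adjusted p = 0.0545, and 0.0395 with a variance trend) and Myc, which TGF-beta lowers in growth arrest, by -0.34 (adjusted p = 0.316). Without control replicate 1, Gzma differed by 0.78 and Stat4 by 1.31, and without control replicate 2 by 1.22 and 1.81. The T cell marker list itself had all 11 members upward, with a median of 1.07, and medians of 2.36 and -0.30 against control replicates 1 and 2.

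The genes with the most similar patterns were sought for the 3 genes of widest range, as the smallest root-mean-square difference between values centred over the 5 arrays, among 17196 named genes. For Tgfb1 they were H2az1, a histone variant gene, at a distance of 0.038, Gzma at 0.055 and Jarid2, a cofactor of the Polycomb complex, at 0.058. For Smad7 they were Taf7 (0.024), Arhgef18 (0.034) and Rragb (0.035), all with control replicate 1 lowest and control replicate 2 highest. For Tgfbr1 they were Crim1 (0.023), Afap1 (0.040) and Sema3a (0.040), all highest on control replicate 1. With 5 arrays that share their groups and control replicate 1, such likeness describes these arrays only.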

How the data were processed

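RNA of sorted colonic CD4 T cells was hybridised to 5 Affymetrix arrays, 3 conditional and 2 control, grouped by the genotype labels. The deposited values are log2 signals made by the authors with RMA in oligo, per the submitters' processing notes. In RMA arrays are quantile-normalized together, which is meant to remove global shifts. Array medians over probe sets still ran from 7.12 in control replicate 1 to 7.23 in conditional replicate 3. Of tool versions, genome build and batches, none is given in the sources used here. Precision is limited by the number of arrays, which have no read depth. Of 34760 probe sets, 21640 had 1 gene symbol, 1321 several and 11799 none in the platform annotation, which is from an older release, and 21553 symbols were found by gene number in RefSeq's table (GRCm38.p6). They gave 19937 genes, each represented by its brightest probe set.

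Groups were compared with limma (version 3.58.1, R 4.3.3), lmFit and eBayes with no covariate, two-sided, with Benjamini-Hochberg adjustment over all genes at a threshold of 0.05. There were 3 residual degrees of freedom, to which the prior added 2.10. The procedure was tested on simulated data in which all arrays varied alike. An array that stands apart, as control replicate 1 did, was not simulated. The 9 genes, the pathway lists and the markers were chosen with earlier results of these data known, so no list was tested. Of the listed genes, 8 were not analysed here. Genes named were the 9, Ppp3r1, those past the threshold or with the smallest p in each of 6 pathway lists (at least 4 a list), and the 3 of most similar pattern. RefSeq promoter windows matched 5 of the 9 genes. Alternatives were normalization, filters on dim genes, choice of probe set, leaving out each array, a replicate block, weighting of arrays, a trend in the variance and another threshold. Applying them to genes outside the 9 was added after seeing the data.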

Additional observations from a re-analysis of the deposited data

How the results depend on the processing

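Of the 9 genes, 0 passed in limma under another quantile normalization, median centring, both filters, both probe set choices, the variance trend, array weights and the replicate block, and 1, Tgfb1, at an adjusted p of 0.1, where 1.88% of all genes (374) passed. Leaving out 1 array gave between 0 and 3 of the 9, and between 0 and 5474 of all genes. All genes past the threshold numbered 48 after quantile normalization was applied again, 13 with array weights, 69 with the replicate block, 110 with median centring and 100 with the variance trend, against 83. Only replicate numbers are shared between the groups. Same-numbered arrays deviated from their group means with correlations over genes of 0.40 for number 1 and -0.29 for number 2. Conditional replicate 3 gave 0.58 with control replicate 2. With 2 controls their deviations mirror each other, so these values cannot decide whether arrays were paired. Median centring moved all differences by 0.094 and turned Smad3 to 0.011, Smad4 to 0.021 and Ppp3r1 to 0.042. With 1 array left out, differences that changed direction ran from -0.78 to 0.084 for Tgfbr1, -0.18 to 0.016 for Smad3, -0.47 to 0.63 for Smad7, -0.084 to 0.20 for Skil, -0.25 to 0.15 for Ppp3r1, -0.47 to 0.61 for Taf7, -0.52 to 0.60 for Arhgef18, -0.46 to 0.58 for Rragb, -0.74 to 0.13 for Crim1, -0.73 to 0.16 for Afap1 and -0.77 to 0.091 for Sema3a. For Tgfb1 the difference stayed between 0.79 and 1.28 over all alternatives run. The cause of these changes was not tested. No call of signal over background was available, so dim genes may be compressed.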

Other observations

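Genes beside the SMAD chain, chosen after values of these data had been seen and therefore only described, split by family member. The Id genes encode inhibitors of DNA binding that BMP and TGF-beta signals control. Id2, the member with a known role in effector and innate lymphocytes, stood at 12.59, 12.62 and 12.58 in conditional replicates 1 to 3, against 11.63 and 12.17 in control replicates 1 and 2, a difference of 0.70 (limma, adjusted p = 0.194). Id3, known from naive and follicular T cells, stood at 8.45, 8.38 and 7.76 in conditional cells, against 10.54 and 9.35 in control cells, a difference of -1.75 (adjusted p = 0.170). Neither overlapped between the groups, as in 30.5% of all genes, and against control replicate 2 alone Id2 differed by 0.43 and Id3 by -1.15. Id1 and Id4 differed by -1.12 and -0.40, and by -0.13 and -0.12 against control replicate 2 alone.

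The SMAD-independent branch of the receptor runs through TRAF6 and the kinase TAK1 with its adaptors. Map3k7, which encodes TAK1, stood at 9.97, 10.07 and 10.12 in conditional cells, against 9.63 and 9.52 in control cells, a difference of 0.48 (limma, adjusted p = 0.159). Tab2 differed by 0.70 (adjusted p = 0.175), Traf6 by 0.48 (adjusted p = 0.372) and Tab1 by -0.26 (adjusted p = 0.371). None of these 4 passed the threshold.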
